A study of Mus musculus with 8 samples.

Results

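Prostaglandins and leukotrienes are eicosanoids, lipid signals made from arachidonate. The 10 genes described here encode enzymes of eicosanoid synthesis and breakdown and 1 prostaglandin receptor. They were taken by symbol from the deposited count table, which names 53170 genes, and all 10 were counted often enough to test. RNA was sequenced from organoids, cultures in which epithelial cells build small tissue-like bodies, raised from the hindstomach (glandular stomach) epithelium of mouse embryos at embryonic day 18.5 and kept in growth medium for 5 days. The 4 YAP5SA libraries have the genotype Shh-Cre;YAP5SA and the 4 control libraries the genotype Shh-Cre, so both groups carry the recombinase, which is driven from the Sonic hedgehog locus and active in foregut epithelium. YAP5SA is a mutant YAP protein that Hippo signalling cannot switch off, and YAP is a partner of DNA-binding factors that turn genes on. Whether libraries of a group came from separate embryos or cultures is not stated, so the p-values cover the spread among these libraries alone, and that spread may be technical.

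As background, cytosolic phospholipase A2 frees arachidonate from membranes. Cyclooxygenases turn it into an unstable prostaglandin, from which prostaglandin E synthase makes prostaglandin E2, and the EP4 receptor answers prostaglandin E2 by raising cyclic AMP. Lipoxygenases take the other route, to leukotrienes and hydroxy acids. In the stomach, prostaglandins from cyclooxygenases maintain mucus and bicarbonate secretion, and tuft cells, a rare chemosensory cell type, are known for both cyclooxygenase and leukotriene enzymes.

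Libraries held between 13672268 and 19710648 reads. Levels are given as CPM, reads of a gene per 1000000 reads of its library after TMM scaling. Mouse Yap1 did not pass the test (153.3 ± 4.2 CPM in YAP5SA and 160.0 ± 7.2 CPM in control, SD, n = 4 each). The labels do not give the species of the transgene, so Yap1 does not check them. Xist ranged from 0.41 to 2.76 CPM in the YAP5SA libraries and from 675.6 to 1049 CPM in the control libraries, and the Y-linked gene Eif2s3y averaged 101.7 ± 7.4 CPM in YAP5SA and 0.07 ± 0.05 CPM in control. Genotype and sex therefore cannot be told apart in any result given here, although all 10 genes are autosomal. Simple epithelial markers were high, with summed levels of 6147 to 6405 CPM in YAP5SA and 7452 to 7977 CPM in control, the most abundant being Krt19. The 8 glandular stomach markers summed to only 7.60 to 11.15 CPM in YAP5SA, against 2117 to 2284 CPM in control, so most of this summed RNA was missing in YAP5SA. Of the 8, 7 fell, among them Tff2 (3.52 ± 0.57 CPM in YAP5SA and 7.16 ± 0.70 CPM in control). Muc5ac did not pass the test (1.38 ± 0.50 CPM in YAP5SA and 0.72 ± 0.50 CPM in control). The most abundant of the 8, the claudin gene Cldn18, averaged 2.05 ± 1.31 CPM in YAP5SA and 1353 ± 42 CPM in control. The part of this difference in the results given here was not tested.

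Of the 10 eicosanoid genes, 7 fell in YAP5SA organoids, 1 rose and 2 did not pass the test. Hpgd, which breaks prostaglandins down, fell most, and Ptges, which makes prostaglandin E2, fell 6.07-fold, while the cyclooxygenase gene Ptgs1 rose 2.26-fold. Of all 14058 tested genes, 49.1% were called in either direction, 25.5% as lower and 23.6% as higher in YAP5SA (edgeR quasi-likelihood test, adjusted p under 0.05). The median log2 fold change of the 10 genes was −1.09, against 0.004 over all tested genes. Changes of at least 2-fold were called in 6 of the 10 genes, against 13.8% of tested genes, and 5 of these were falls, against 8.59% of tested genes. Among these falls, Hpgd, Alox5 and Alox12 had enough reads to be tested only through their control libraries. Ltc4s, with 4, 12, 18 and 4 reads in YAP5SA 1 to 4, also needed its control libraries to be tested. In 7 of the 10 genes no YAP5SA library overlapped a control library, which held for 45.7% of tested genes. The 10 genes were chosen with earlier results of these data known, so these comparisons describe the list and do not test it. In bulk RNA, fewer cells of a type and less RNA per cell cannot be told apart.

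**Figure D1:**
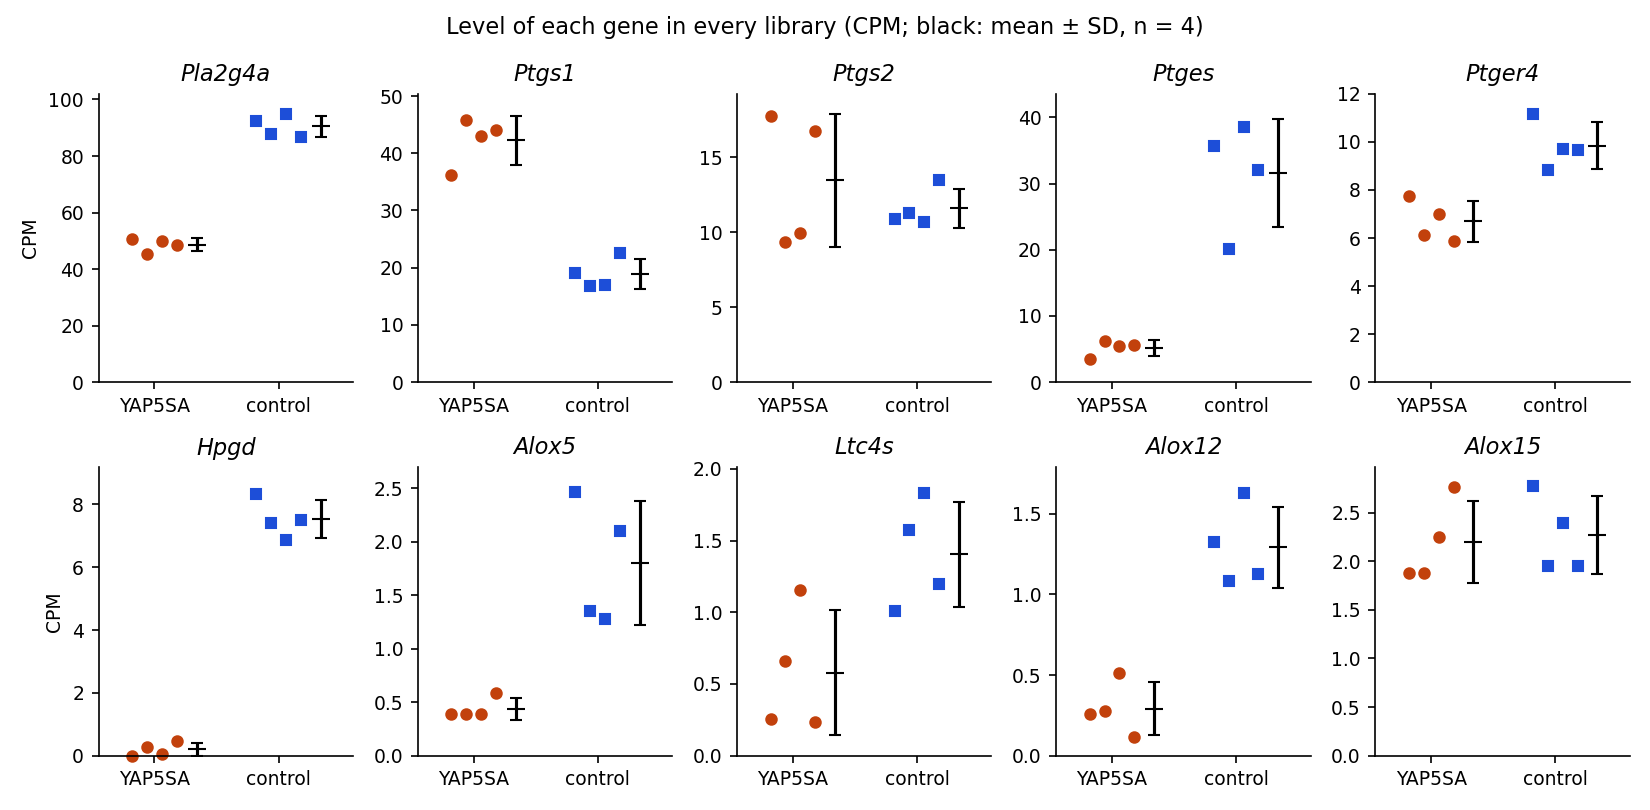
Level of each of the 10 genes in every library, in CPM on linear axes that start at 0, with YAP5SA libraries as circles, control libraries as squares and the mean ± SD of 4 libraries in black. Ptgs1 sits between 36.1 and 45.8 CPM in YAP5SA, above every control library, while Hpgd stays at or under 0.471 CPM in YAP5SA, below every control library.

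The promoters of the gene that rose and of the 3 that fell furthest in fold change are shown because YAP acts through TEAD proteins, which bind DNA at GGAATG. Each run covers 250 bases before to 50 bases after the annotated start, from RefSeq on build GRCm38.p6. Capitals mark GGAATG on either strand, the reverse reading CATTCC. The runs are chr2:36230176-36230475 on the plus strand for Ptgs1, chr2:30903248-30903547 on the minus strand for Ptges, chr8:56294302-56294601 on the plus strand for Hpgd and chr11:70255321-70255620 on the minus strand for Alox12.
Ptgs1: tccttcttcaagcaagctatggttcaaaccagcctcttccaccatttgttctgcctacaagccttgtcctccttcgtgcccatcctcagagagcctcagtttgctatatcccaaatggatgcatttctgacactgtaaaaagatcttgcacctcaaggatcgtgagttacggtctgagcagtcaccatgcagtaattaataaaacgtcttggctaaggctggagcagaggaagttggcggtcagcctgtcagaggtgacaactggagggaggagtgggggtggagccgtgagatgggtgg
Ptges: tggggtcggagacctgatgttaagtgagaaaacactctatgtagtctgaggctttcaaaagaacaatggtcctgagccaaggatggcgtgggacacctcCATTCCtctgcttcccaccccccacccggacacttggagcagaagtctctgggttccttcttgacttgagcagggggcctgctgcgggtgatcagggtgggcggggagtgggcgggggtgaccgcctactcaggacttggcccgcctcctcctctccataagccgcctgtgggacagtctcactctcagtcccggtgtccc
Hpgd: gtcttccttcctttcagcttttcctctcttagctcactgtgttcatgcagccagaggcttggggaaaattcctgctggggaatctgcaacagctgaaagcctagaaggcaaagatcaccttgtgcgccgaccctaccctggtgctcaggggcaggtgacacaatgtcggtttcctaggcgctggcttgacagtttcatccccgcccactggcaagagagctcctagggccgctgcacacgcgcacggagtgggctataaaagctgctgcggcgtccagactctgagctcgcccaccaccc
Alox12: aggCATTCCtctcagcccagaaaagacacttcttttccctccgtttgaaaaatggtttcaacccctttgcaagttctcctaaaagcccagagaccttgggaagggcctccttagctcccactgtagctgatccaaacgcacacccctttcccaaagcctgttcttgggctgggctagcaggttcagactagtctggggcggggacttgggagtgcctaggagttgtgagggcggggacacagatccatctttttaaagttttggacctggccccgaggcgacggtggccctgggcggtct

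The Ptges and Alox12 windows each hold the TEAD letters, starting 151 and 247 bases before the start, and those of Ptgs1 and Hpgd do not. RefSeq promoters matched 9 of the 10 genes, with 10 promoters, and 2 of these 10 held the letters, against 14.7% of all 32851 promoters of this length. The AP-1 letters TGANTCA and the GATA letters AGATAA were in none of the 10, against 7.81% and 11.2% of all promoters. The cyclic AMP element core TGACG was in the Ptgs2 promoter and no other of the 10, against 20.8% of all promoters. Both strands were searched for each motif, and a match describes letters only.

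Arachidonate release was represented by Pla2g4a, the cytosolic phospholipase A2 that acts on calcium signals. It had the highest mean CPM of the 10 genes, with 50.6, 45.3, 49.95 and 48.6 CPM in YAP5SA 1 to 4, against 92.4, 87.8, 94.8 and 86.9 CPM in control 1 to 4. Every YAP5SA library lay below every control library, and libraries of a group were close to each other. The log2 fold change was −0.90 ± 0.06 (SE, edgeR adjusted p = 6.67e-10). Of 17 other phospholipase genes listed, 5 were tested, of which 4 fell and 1 did not pass, against 25.5% of all tested genes that fell. Plaat3, a phospholipase and acyltransferase, averaged 28.0 ± 4.1 CPM in YAP5SA and 59.7 ± 5.7 CPM in control. Pla2g6, a calcium-independent phospholipase, averaged 33.8 ± 1.5 CPM in YAP5SA and 51.1 ± 4.4 CPM in control. Pla2g4c, a relative of Pla2g4a, averaged 2.72 ± 0.54 CPM in YAP5SA and 20.2 ± 7.1 CPM in control. The secretory phospholipase gene Pla2g12b had 0 reads in YAP5SA and 79 in control, at least 25.9-fold lower when YAP5SA is set at a floor of 3 counts for the whole group. Pla2g12b was tested only through its control libraries, so of the calls it could only be called lower. Of the 12 not tested, Pla2g4b reached the highest level in any library, with 66 reads in YAP5SA and 20 reads in control.

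Of the genes that supply arachidonate to membranes, 11 were listed and 9 tested, of which 5 rose, 2 fell and 2 did not pass. Among all tested genes, 23.6% rose and 25.5% fell. The fatty acid desaturase genes, whose enzymes make arachidonate from linoleate, rose furthest in level. Fads1 averaged 462.4 ± 20.4 CPM in YAP5SA and 89.9 ± 8.3 CPM in control, and Fads2 averaged 624.8 ± 12.2 CPM in YAP5SA and 282.4 ± 23.2 CPM in control (edgeR adjusted p = 3.1e-15 and 1.25e-11). Lpcat2, a lysophospholipid acyltransferase, also rose, with 21.0 ± 1.5 CPM in YAP5SA and 8.64 ± 0.67 CPM in control. Acsl4, which activates arachidonate for storage in phospholipids, fell, with 267.9 ± 10.1 CPM in YAP5SA and 465.3 ± 16.3 CPM in control. Daglb, a diacylglycerol lipase, averaged 9.09 ± 0.94 CPM in YAP5SA and 13.7 ± 0.8 CPM in control and fell too.

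The cyclooxygenase genes parted. Ptgs1, the form that most tissues express constantly, had 36.1, 45.8, 43.1 and 44.05 CPM in YAP5SA 1 to 4, against 19.0, 16.8, 17.1 and 22.5 CPM in control 1 to 4. The groups did not overlap, and YAP5SA 1 was the lowest of its group. The exons of Gm43621 on the opposite strand share 3.81% of the Ptgs1 exon bases and had 16 reads in all. The fitted log2 difference, YAP5SA over control, was 1.18 ± 0.10 (SE, edgeR adjusted p = 1.79e-08). Ptgs2, the form that inflammation and growth signals induce, had 17.8, 9.33, 9.98 and 16.8 CPM in YAP5SA 1 to 4, against 10.9, 11.3, 10.7 and 13.5 CPM in control 1 to 4. YAP5SA 1 and 4 stood above all control libraries and YAP5SA 2 and 3 below all of them. Ptgs2 did not pass the test, with a log2 fold change of 0.22 ± 0.19 (SE, edgeR adjusted p = 0.379) and a 95% interval from −0.16 to 0.60.

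Set within each library, where scaling does not enter, Ptgs1 took 67.0%, 83.1%, 81.2% and 72.4% of the reads of both cyclooxygenase genes in YAP5SA 1 to 4, against 63.5%, 59.9%, 61.5% and 62.5% in control 1 to 4. All 4 YAP5SA libraries lay above all 4 control libraries. The Wilson 95% interval of YAP5SA 1, 63.7% to 70.1%, overlapped those of all 4 control libraries, whose upper bounds ran from 64.0% to 67.7%. The means differed by 14.1 percentage points, and by 11.7 to 17.07 when each library was left out in turn. This share and that of Hpgd with Ptges were chosen after their values were seen, so both are descriptions with no test.

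**Figure D2:**
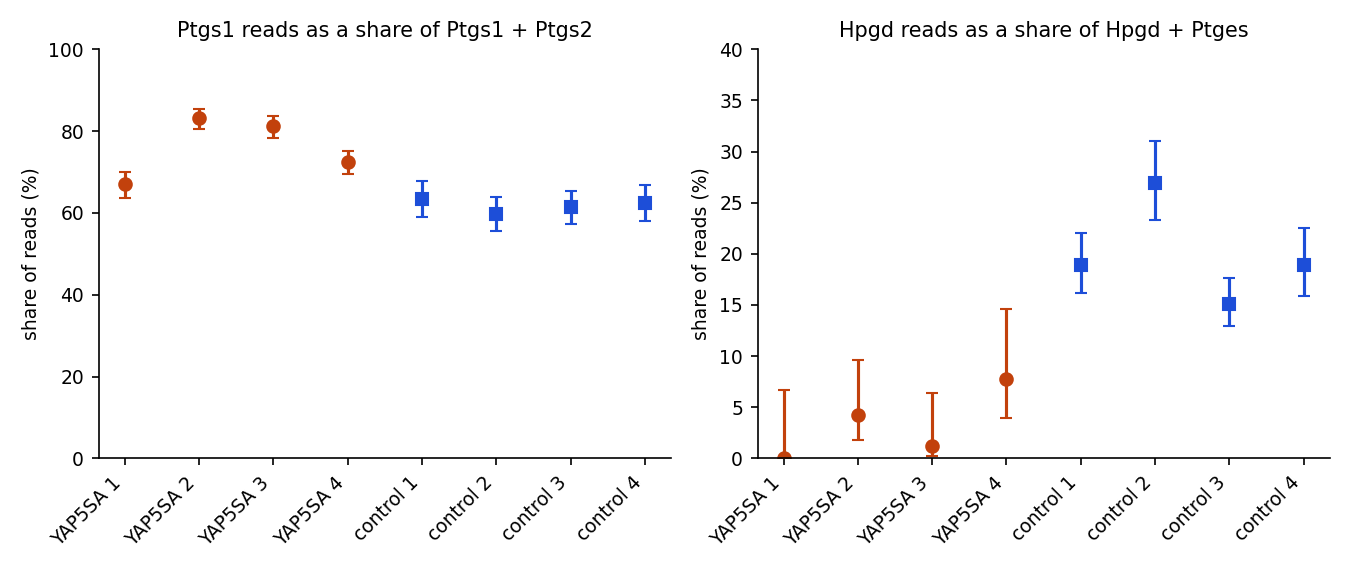
Share of reads in percent within each library, with Ptgs1 as a share of Ptgs1 plus Ptgs2 on the left and Hpgd as a share of Hpgd plus Ptges on the right. Points are single libraries and bars are Wilson 95% intervals, which cover counting error only. YAP5SA libraries lie between 67.0% and 83.1% on the left, above the control libraries, and at or under 7.77% on the right, below them.

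Ptges encodes the microsomal prostaglandin E synthase that works together with induced cyclooxygenase. It had 3.50, 6.18, 5.41 and 5.59 CPM in YAP5SA 1 to 4, against 35.7, 20.1, 38.5 and 32.1 CPM in control 1 to 4. Control 2 was the lowest of its group and still far above the highest YAP5SA library. The log2 fold change was −2.60 ± 0.22 (SE, edgeR adjusted p = 1.83e-06), and 95.5% of tested genes had an equal or smaller change in either direction. Of the other prostanoid synthase genes, 8 were listed and 4 tested, of which 3 fell and 1 did not pass. Over all tested genes 25.5% fell. Ptges3, the cytosolic prostaglandin E synthase that is also a chaperone of HSP90, averaged 174.8 ± 4.7 CPM in YAP5SA and 190.4 ± 2.1 CPM in control. Akr1b3, an aldose reductase that can also make prostaglandin F, averaged 78.5 ± 5.4 CPM in YAP5SA and 87.3 ± 3.8 CPM in control. Prxl2b, a prostamide and prostaglandin F synthase, averaged 1.38 ± 0.41 CPM in YAP5SA and 2.41 ± 1.0 CPM in control. These 3 calls were near the threshold (edgeR adjusted p = 0.0346, 0.0464 and 0.0397).

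Ptger4 encodes the EP4 receptor and was the only prostanoid receptor gene with enough reads to test. It had 7.77, 6.13, 7.02 and 5.89 CPM in YAP5SA 1 to 4, against 11.2, 8.83, 9.72 and 9.68 CPM in control 1 to 4. The groups did not overlap, although the highest YAP5SA and the lowest control library were close. On the log2 scale the fold change was −0.56 ± 0.13 (SE, edgeR adjusted p = 0.00169). On the opposite strand, exons of the pseudogene Gm15937 cover 15.3% of the Ptger4 exons, and those of Ttc33 cover 1.23%. Without strand, reads in these shared stretches cannot be told apart from Ptger4 reads. Gm15937 had 1 read over all 8 libraries. Ttc33 had 1596 reads in YAP5SA and 1948 in control, while Ptger4 had 440 reads in YAP5SA and 660 in control. The 8 other prostanoid receptor genes together held 51 reads in YAP5SA and 46 reads in control. Most of these were from Ptger1, with 42 reads in YAP5SA and 39 in control, while Ptger2 and Ptgfr had 0 reads in all libraries.

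Genes that respond to cyclic AMP, the messenger of EP4 and of many other receptors, divided. Of 12 listed and 11 tested, 3 rose, 5 fell and 3 did not pass, where 23.6% of all tested genes rose and 25.5% fell. The nuclear receptor gene Nr4a2 fell, with 5.80 ± 1.21 CPM in YAP5SA and 21.2 ± 4.2 CPM in control. The transcription factor gene Crem fell, with 6.83 ± 0.50 CPM in YAP5SA and 14.2 ± 1.5 CPM in control. Areg, an EGF family ligand, averaged 16.0 ± 1.8 CPM in YAP5SA and 26.8 ± 2.7 CPM in control and fell too. The kinase gene Sik1 rose, with 107.5 ± 9.3 CPM in YAP5SA and 47.75 ± 7.96 CPM in control, as did the clock gene Per1, with 30.2 ± 1.3 CPM in YAP5SA and 18.6 ± 3.7 CPM in control. Fos, an AP-1 subunit gene, rose to 22.3 ± 0.8 CPM in YAP5SA, against 17.9 ± 2.4 CPM in control. Adjusted p of these 6 genes ran from 4.61e-08 to 0.0117 by edgeR.

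Hpgd encodes the dehydrogenase that begins the breakdown of prostaglandins. It had 0, 5, 1 and 8 reads in YAP5SA 1 to 4, against 132, 137, 135 and 100 reads in control 1 to 4. In level this was 0, 0.276, 0.0644 and 0.471 CPM in YAP5SA 1 to 4, and 8.34, 7.42, 6.87 and 7.5 CPM in control 1 to 4. For YAP5SA 1, 0 reads allow a level of up to 0.194 CPM, set by 3 counts. The highest YAP5SA library lay far below the lowest control library. The log2 fold change was −5.11 ± 0.36 (SE, edgeR adjusted p = 1.3e-09), and 98.5% of tested genes had an equal or smaller change in either direction.

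Hpgd took 0%, 4.27%, 1.18% and 7.77% of the reads of Hpgd and Ptges together in YAP5SA 1 to 4, against 18.9%, 27.0%, 15.1% and 18.9% in control 1 to 4. No YAP5SA library reached a control library, and the difference of the means was −16.7 percentage points. The interval of YAP5SA 4, 3.99% to 14.6%, overlapped that of control 3, 12.9% to 17.6%. The genes of later breakdown and of transport were mixed, with 2 higher, 2 lower and 2 not past the test among 6. Of all tested genes, 23.6% were higher and 25.5% lower. Cbr1, a carbonyl reductase that acts on prostaglandin E2, fell, with 35.2 ± 2.1 CPM in YAP5SA and 117.8 ± 9.9 CPM in control. Abcc4, which exports prostaglandins, fell, with 201.1 ± 15.5 CPM in YAP5SA and 328.9 ± 43.6 CPM in control. Slco2a1, which takes prostaglandins up for breakdown, rose at a low level, with 2.99 ± 0.51 CPM in YAP5SA and 0.86 ± 0.35 CPM in control. With 21, 10, 13 and 12 reads in control 1 to 4, Slco2a1 needed its YAP5SA libraries to be tested. Zadh2, a prostaglandin reductase also called Ptgr3, rose, with 90.3 ± 4.0 CPM in YAP5SA and 68.8 ± 1.9 CPM in control.

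Alox5 encodes the lipoxygenase that starts leukotriene synthesis. It had 6, 7, 6 and 10 reads in YAP5SA 1 to 4, against 39, 25, 25 and 28 reads in control 1 to 4. In level this was 0.388, 0.387, 0.386 and 0.589 CPM in YAP5SA 1 to 4, and 2.46, 1.35, 1.27 and 2.10 CPM in control 1 to 4. The groups did not overlap, and 3 YAP5SA libraries were nearly alike. The fitted log2 difference, YAP5SA over control, was −2.0 ± 0.35 (SE, edgeR adjusted p = 0.000124).

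Ltc4s encodes the synthase that joins the leukotriene precursor to glutathione. It had 4, 12, 18 and 4 reads in YAP5SA 1 to 4, against 16, 29, 36 and 16 reads in control 1 to 4. YAP5SA 3, at 1.16 CPM, stood above control 1, at 1.01 CPM, so the groups overlapped, and YAP5SA 1 and 4 were the lowest, at 0.259 and 0.236 CPM. The log2 fold change was −1.29 ± 0.42 (SE, edgeR adjusted p = 0.0168). The call was lost without YAP5SA 1, YAP5SA 4 or control 3 (adjusted p = 0.0561, 0.0578 and 0.0562, edgeR), and over all leave-one-out fits the adjusted p lay between 0.00249 and 0.0578 (edgeR). The antisense gene Gm26542 shares 26.4% of the Ltc4s exon bases and had 18 reads in YAP5SA and 37 reads in control, and without strand its reads and those of Ltc4s cannot be told apart.

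Of the other genes of leukotriene synthesis and conversion, 5 of 10 were tested, of which 3 fell, 1 rose and 1 did not pass. Over all tested genes 25.5% fell and 23.6% rose. Mgst2, a microsomal glutathione transferase that can make leukotriene C, fell, with 1.91 ± 0.50 CPM in YAP5SA and 9.72 ± 1.91 CPM in control. Abcc1, which exports leukotriene C, fell, with 130.2 ± 4.4 CPM in YAP5SA and 210.7 ± 16.0 CPM in control. Lta4h, which makes leukotriene B, fell, with 94.9 ± 3.8 CPM in YAP5SA and 129.6 ± 8.9 CPM in control. Mgst3, a relative of Mgst2, rose, with 21.7 ± 1.8 CPM in YAP5SA and 16.9 ± 2.7 CPM in control. The 6 leukotriene receptor genes together held 12 reads in YAP5SA and 46 reads in control, too few to test, and 3 of them had 0 reads in every library.

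Alox12 and Alox15 encode lipoxygenases that make hydroxy acids, with Alox12 known from platelets and Alox15 from macrophages. Alox12 had 4, 5, 8 and 2 reads in YAP5SA 1 to 4, against 21, 20, 32 and 15 reads in control 1 to 4. All YAP5SA libraries, at up to 0.515 CPM, lay below all control libraries, at 1.08 CPM or more. On the log2 scale the fold change was −2.14 ± 0.40 (SE, edgeR adjusted p = 0.000244).

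Alox15 had 1.88, 1.88, 2.25 and 2.77 CPM in YAP5SA 1 to 4, against 2.78, 1.95, 2.39 and 1.95 CPM in control 1 to 4. The groups covered nearly the same range, and the gene did not pass the test (edgeR adjusted p = 0.879). Its log2 fold change was −0.05 ± 0.23 (SE), with a 95% interval from −0.51 to 0.41. The 4 other lipoxygenase genes listed held 15 reads in YAP5SA and 47 reads in control and were not tested.

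**Figure D3:**
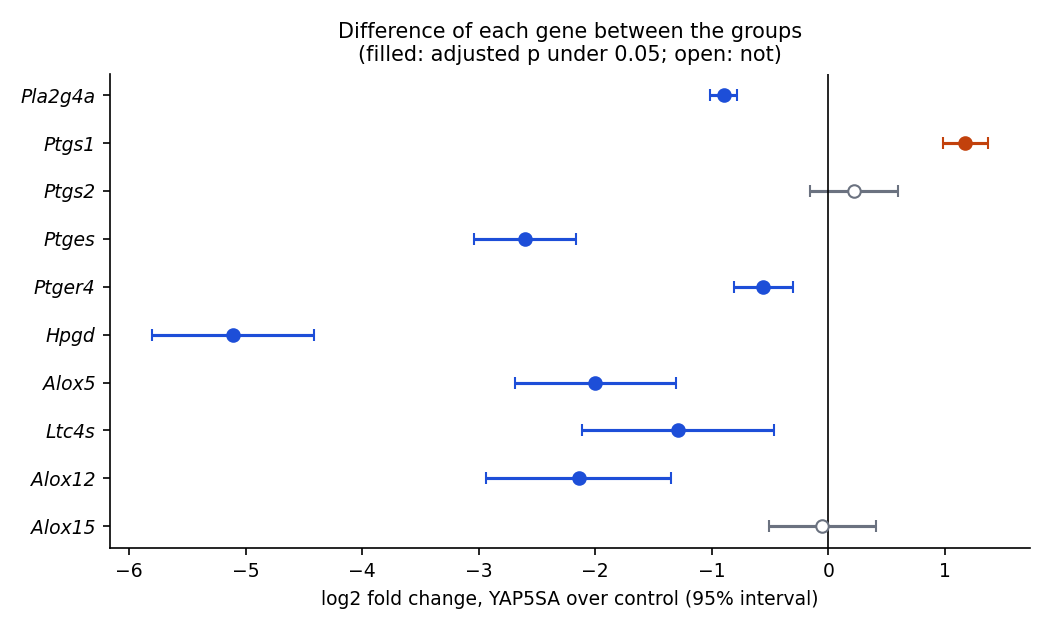
Log2 fold change of each of the 10 genes, YAP5SA over control, on the horizontal axis, with 95% intervals taken from the standard error. Filled points passed the test and open points did not. Ptgs1 is the only filled point right of 0, and Hpgd, at −5.11, is the farthest left.

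Marker lists of cell types known for eicosanoid enzymes overlapped between the groups in summed level for tuft cells and lay lower in YAP5SA for leukocytes. The 10 tuft cell markers summed to 16.8 to 24.0 CPM in YAP5SA and 17.3 to 20.9 CPM in control. Of the 3 tested, Dclk1 rose (12.8 ± 1.2 CPM in YAP5SA and 6.10 ± 1.26 CPM in control), Avil fell (5.62 ± 2.33 CPM in YAP5SA and 11.6 ± 1.1 CPM in control) and Trpm5 did not pass, while Chat and Gfi1b had 0 reads in all libraries. The 8 leukocyte markers summed to 19.0 to 22.0 CPM in YAP5SA and 84.4 to 103.3 CPM in control, mostly from Cd14 and Cd68, which fell, while Csf1r rose (1.49 ± 0.60 CPM in YAP5SA and 0.19 ± 0.07 CPM in control). The pan-leukocyte gene Ptprc had 26 reads in YAP5SA and 36 in control. The 6 mast cell markers summed to at most 0.0552 CPM in YAP5SA and 0.650 CPM in control, the most abundant being Cma1, with Cpa3, Mcpt4, Tpsb2 and Fcer1a at 0 reads in all libraries.

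Platelet markers summed to 1.83 to 2.85 CPM in YAP5SA and 1.20 to 1.52 CPM in control, the most abundant being Itga2b, with Gp1bb at 0 reads. Mesenchymal markers summed to 0.497 to 1.36 CPM in YAP5SA and 1.57 to 4.17 CPM in control, the most abundant being Col1a2, with Lum at 0 reads. Endothelial markers summed to 0.0644 to 0.842 CPM in YAP5SA and 6.50 to 13.7 CPM in control. Tek made up nearly all of the control sum, and averaged 0.32 ± 0.26 CPM in YAP5SA and 8.88 ± 2.98 CPM in control. Squamous epithelial markers summed to 898.7 to 1016 CPM in YAP5SA and 95.3 to 147.1 CPM in control, nearly all from Krt4. Krt6a also rose, with 3.27 ± 0.50 CPM in YAP5SA and 0.53 ± 0.33 CPM in control, and Krt13 did not pass. Krt5 had 0 reads in YAP5SA and 36 in control, Krt14 had 2 and 8, and Trp63 had 0 and 2, too few to test. The part of these cell types in the eicosanoid differences was not tested.

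**Figure D4:**
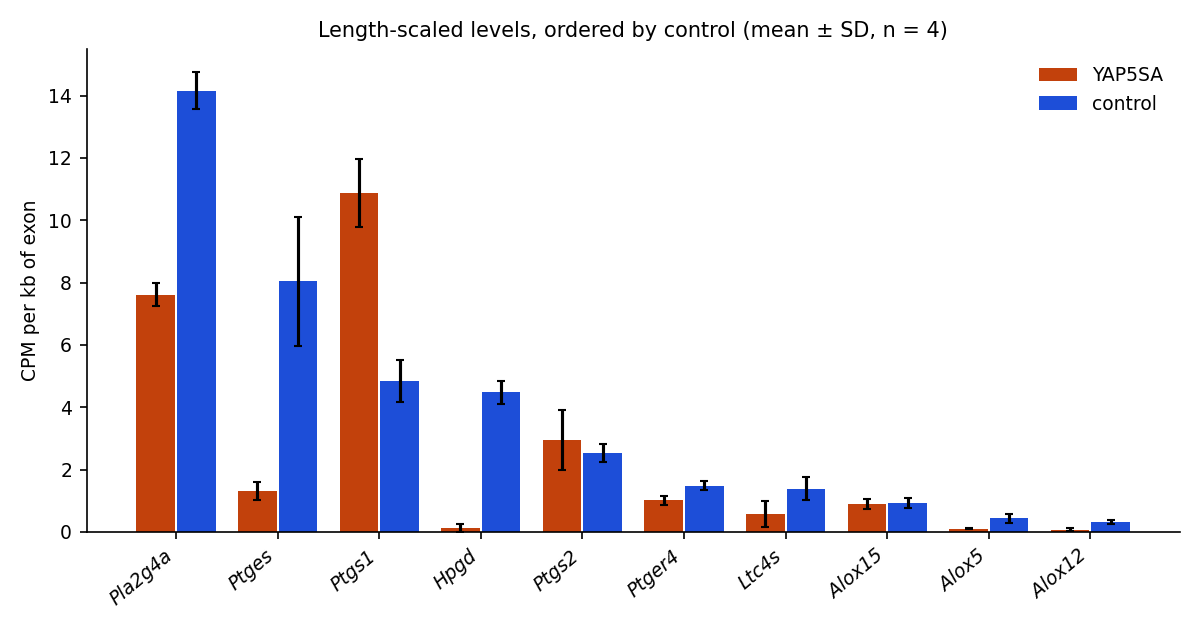
Mean level of each gene in CPM per kb of exon (bars from 0, YAP5SA left of control in each pair, error bars SD, n = 4), ordered by the control mean. Ptgs1 has the highest bar in YAP5SA, at 10.9, and Pla2g4a the highest in control, at 14.2.

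Levels can be compared between genes only per length, here as CPM per kb of exon in GENCODE M21. These lengths merge all annotated exons of a gene, and the annotation used for counting was not given. The order therefore holds for these lengths only. In YAP5SA the order began with Ptgs1 (10.9 ± 1.1), Pla2g4a (7.61 ± 0.37) and Ptgs2 (2.94 ± 0.97), each outside the range of the next. Ptges (1.32 ± 0.30), Ptger4 (1.01 ± 0.13), Alox15 (0.894 ± 0.172), Ltc4s (0.571 ± 0.427), Hpgd (0.121 ± 0.127), Alox5 (0.107 ± 0.025) and Alox12 (0.0715 ± 0.0403) followed, with neighbours overlapping throughout. In control the order was Pla2g4a (14.2 ± 0.6), Ptges (8.04 ± 2.06), Ptgs1 (4.85 ± 0.68), Hpgd (4.48 ± 0.36), Ptgs2 (2.53 ± 0.28), Ptger4 (1.48 ± 0.15), Ltc4s (1.38 ± 0.36), Alox15 (0.924 ± 0.163), Alox5 (0.438 ± 0.141) and Alox12 (0.316 ± 0.061). There, Ptges overlapped Ptgs1, Ptgs1 overlapped Hpgd, Ltc4s overlapped both Ptger4 and Alox15, and Alox5 overlapped Alox12. Hpgd thus had rank 8 in YAP5SA and rank 4 in control, and Ptgs1 had rank 1 in YAP5SA and rank 3 in control.

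The genes closest in pattern to Pla2g4a, by the root mean square difference of centred log2 CPM over the 8 libraries, were Cdkn2b, a cell cycle inhibitor gene (0.048), the interferon gamma receptor gene Ifngr1 (0.055) and Ndrg2 (0.063). Cdkn2b averaged 30.7 ± 1.4 CPM in YAP5SA and 59.8 ± 4.4 CPM in control, and Ifngr1 averaged 89.5 ± 3.4 CPM in YAP5SA and 169.7 ± 10.1 CPM in control. Those closest to Hpgd were the neurofilament gene Nefm (0.398), the ceramide synthase gene Cers4 (0.424) and Cyba, a subunit gene of NADPH oxidases (0.451). Nefm averaged 0.76 ± 0.32 CPM in YAP5SA and 21.1 ± 4.6 CPM in control. These distances mostly measure the difference between 2 groups and carry no test.

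Over the 72 other eicosanoid pathway genes listed, 31 were tested, of which 15 fell, 9 rose and 7 did not pass. That is 77.4% called, against 49.1% of all tested genes. The median log2 fold change was −0.12. Among these genes, Pla2g12b was tested only through its control libraries, and Slco2a1 needed its YAP5SA libraries to be tested. This list too was chosen with earlier results of these data known, so these shares are descriptions with no test. Of the 41 not tested, 37 were under 1 CPM in every library and 9 had no read at all. Among the 2 epoxide hydrolase genes, Ephx1 rose (760.5 ± 20.8 CPM in YAP5SA and 664.1 ± 19.1 CPM in control) and Ephx2 fell (11.1 ± 1.2 CPM in YAP5SA and 17.5 ± 3.5 CPM in control).

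**Figure D5:**
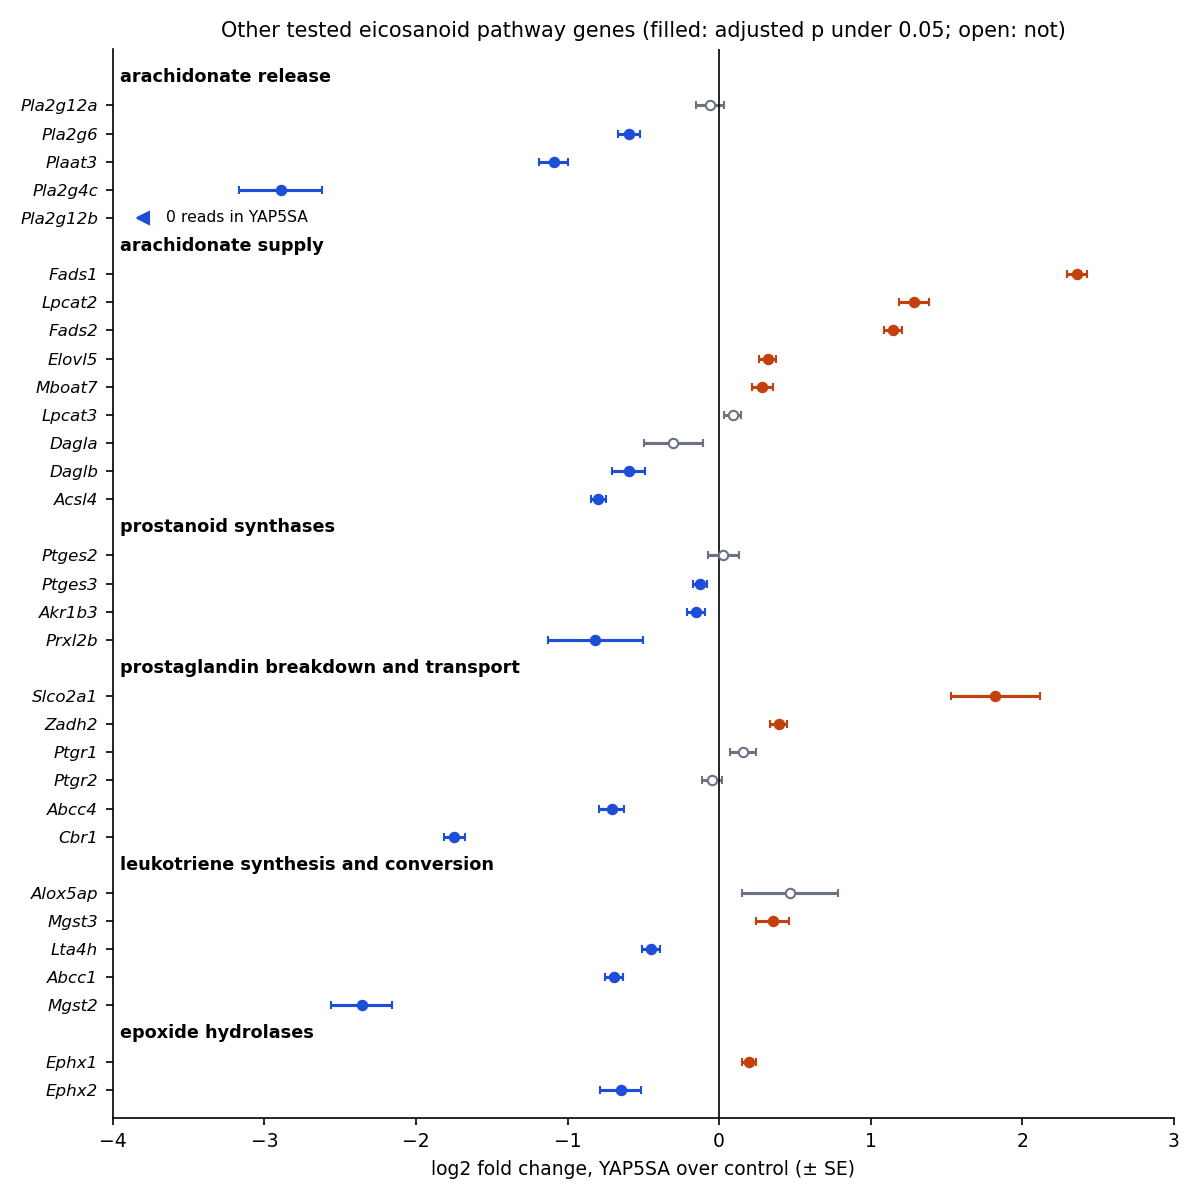
Log2 fold change of the 31 other tested eicosanoid pathway genes, YAP5SA over control, with standard errors, grouped by role. Filled points passed the test and open points did not; the triangle stands for Pla2g12b, which had 0 reads in YAP5SA and is drawn at the left edge with no value. Fads1 lies farthest right, and the phospholipase genes that passed lie left of 0.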

How the data were processed

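Per the labels' protocols, RNA of 8 organoid libraries was read from both ends. The deposited values are whole-number read counts per gene. HISAT2 2.0.1, HTSeq 0.6.1, cutadapt and build mm9 are listed in the submitters' processing notes. The annotation, counting options and strand were not given in the sources used here. Rows without a gene name (0.190% to 0.221% of counts) were left out, and rows sharing a symbol were summed. No member had more than 1 row.

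Genes were kept by edgeR's filterByExpr (minimum count 10, minimum total 15), scaled by TMM and compared by edgeR's quasi-likelihood test (version 4.0.16, R 4.3.3; robust glmQLFit, then glmQLFTest) with group as the only term. Adjusted p are Benjamini-Hochberg values over 14058 genes, and calls lie under 0.05. The fit was also tested on simulated data. Standard errors are the log2 fold change over the square root of F. CPM use TMM-scaled library sizes. Reads carry no molecular identifiers, so Wilson intervals and the floor of 3 counts cover counting error only. Pairs of libraries of a group differed beyond sampling noise (chi-square per degree of freedom 3.6 to 30.7 over genes), so none merely repeats the reads of another. Each was entered as 1 library in the test, which does not show that they are independent replicates.

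The 10 genes and all lists were chosen with earlier results of these data known. Of the other lists, the text names up to 3 called genes in each direction by adjusted p and the most abundant tested gene of each list, the most abundant marker of each list, and the 3 genes closest in log2 CPM (prior count 2) to the most abundant member and to the called member with the largest change, passing over unnamed gene models. Pla2g12b, Pla2g4b, Ptger1, Ptger2, Ptgfr, the markers at 0, Ptprc, Csf1r, Cd68, Avil, Trpm5 and both read shares were chosen after their values were seen. Also chosen this way were Muc5ac, Tff2 and the squamous markers other than Krt4. DESeq2 1.42.0, other scalings and filters, a replicate block, a threshold of 0.01 and leaving out each library were alternatives.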

Additional observations from a re-analysis of the deposited data

Results flagged for a closer look

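Alox5 in YAP5SA 4 stood apart from the other libraries of its group, at 0.589 CPM (10 reads), against 0.386 to 0.388 CPM (6 or 7 reads) in YAP5SA 1 to 3. Its gap to the nearest of them, divided by the range of the group, was above Dixon's 95% critical value for 4 samples. This was 1 of 20 groups of 4 libraries checked, and chance marks about 1 in 20. Without YAP5SA 4 Alox5 still passed the test.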

How the results depend on the processing

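The count of members called stayed at 7 or 8 when each library was left out, and was 5 of 7 with a minimum count of 30, which leaves Alox5, Alox12 and Ltc4s untested. The count over all tested genes ran from 5377 (threshold of 0.01) to 7611 (no filter), and that of other pathway genes from 20 to 28, within 1.5 times the reported counts. Ltc4s alone among the 8 called members lost its call, without YAP5SA 1, YAP5SA 4 or control 3 and at a threshold of 0.01. The uncalled Alox15 changed sign when libraries were left out (log2 fold change −0.186 to 0.048), and Ptgs2 ranged from 0.05 to 0.36. Leaving out libraries gave −5.87 to −4.74 for Hpgd, −2.77 to −2.46 for Ptges and 1.12 to 1.27 for Ptgs1. Scaling by library size alone shifted all genes by a median of 0.028. Libraries of the same number did not deviate together (correlations −0.079 to 0.094), and with a replicate block 6586 genes, 8 members and 22 other pathway genes were called. Alox5, Alox12 and Ltc4s rest on 2 to 39 reads in a library, which limits their precision.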

Other observations

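Some values split the YAP5SA libraries the same way, and were chosen after they were seen, with no test. Ptgs2 was higher in YAP5SA 1 and 4 (17.8 and 16.8 CPM) than in YAP5SA 2 and 3 (9.33 and 9.98 CPM), and so was Dusp1, a phosphatase gene of the immediate early response (49.0 and 46.0 CPM, against 37.7 and 31.3 CPM). Ltc4s went the other way, with 0.259 and 0.236 CPM in YAP5SA 1 and 4 and 0.663 and 1.16 CPM in YAP5SA 2 and 3, as did the actin regulator gene Avil, with 4.14 and 3.24 CPM in YAP5SA 1 and 4 and 6.85 and 8.24 CPM in YAP5SA 2 and 3. Fos, another immediate early gene, did not follow this split (22.8, 23.2, 21.8 and 21.4 CPM in YAP5SA 1 to 4).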
